A study of Mus musculus with 16 samples.

Results

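Voltage-gated potassium channels of the Kv1 and Kv3 families were followed in CA1, a pyramidal cell field of the hippocampus, through 8 genes named by symbol: the Kv1 pore-forming subunits Kcna1, Kcna2 and Kcna4, the cytosolic Kv beta subunits Kcnab1 and Kcnab2, and the Kv3 pore-forming subunits Kcnc1, Kcnc2 and Kcnc4. The members were taken by name and not by any measured value, and all 8 are among the 46403 gene symbols of the files. None of them is a Kv2 gene, and Kcnb2, a Kv2 gene, is described with the wider family. RNA from 8 Fmr1-KO mice and 8 WT mice was sequenced, 1 library per labelled animal, and every mouse had served as a yoked control in an active place avoidance task. Loss of the Fmr1 product FMRP, which binds mRNAs and holds back their translation, causes fragile X syndrome. The labels give the WT mice as C57BL/6 and the others as Fmr1-KO without further detail of the allele. Age, sex and whether the mice were littermates are not among the labels used here. All p-values below reflect the spread between these libraries. CA1 was taken as bulk tissue, so fewer cells of a type and less RNA per cell cannot be told apart.

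Kv1 channels open at low voltage and sit mainly in axons, at the initial segment, near nodes and in terminals, where they set the threshold and the width of the action potential. Kv beta subunits bind Kv1 channels from the cytosol, help them reach the axon and, in the case of Kcnab1, give them fast inactivation. Kv3 channels open at high voltage and close fast, which lets neurons such as parvalbumin interneurons fire at high rates, and Kcnc1 mRNA has been reported as bound by FMRP in the auditory brainstem.

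All 6 pore-forming members carry the potassium selectivity filter, the stretch of the pore that defines them as potassium channels. It is shown here to let the genes be compared at the bases of a conserved stretch. Each line gives 39 coding bases from the GENCODE M21 transcripts of GRCm38, 5′ to 3′ in the sense of the gene, with the 15 bases that encode the filter in capitals.
Kcna1: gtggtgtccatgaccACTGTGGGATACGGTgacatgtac
Kcna2: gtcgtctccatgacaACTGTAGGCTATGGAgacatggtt
Kcna4: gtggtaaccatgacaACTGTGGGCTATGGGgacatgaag
Kcnc1: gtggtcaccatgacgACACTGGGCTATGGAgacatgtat
Kcnc2: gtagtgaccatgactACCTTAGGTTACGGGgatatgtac
Kcnc4: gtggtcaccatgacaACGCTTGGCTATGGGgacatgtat
These segments lie at chr6:126642219-126642257 on the minus strand (Kcna1), chr3:107105209-107105247 on the plus strand (Kcna2), chr2:107296480-107296518 on the plus strand (Kcna4), chr7:46427958-46427996 on the plus strand (Kcnc1), chr10:112456214-112456252 on the plus strand (Kcnc2) and chr3:107447790-107447828 on the minus strand (Kcnc4). Kcnc1 and Kcnc4 were the closest pair, with 4 differing bases of 39, and Kcna2 and Kcnc2 the most distant, with 13. Within the filter the pairs differed at 2 to 6 of the 15 bases.

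Library totals and tissue composition frame the member values. Fmr1-KO libraries held 1480966 to 2979481 estimated counts, and WT libraries 2126632 to 3275003, apart from WT replicate 3 with 878484 and WT replicate 6 with 515103. In those 2 libraries the 10 largest genes took 10.35% and 31.59% of counts, against 3.73% to 6.06% elsewhere, so results that rest on them are also given without them. CPM here are estimated counts scaled to a common library size with TMM factors. Fmr1 itself averaged 22.2 ± 7.08 CPM in Fmr1-KO mice and 58.1 ± 19.4 CPM in WT mice (SD, n = 8 each; log2 fold change −1.41, edgeR quasi-likelihood test, adjusted p = 0.0112). The Fmr1-KO libraries still held Fmr1 reads, at 8.44 to 32.0 CPM, below all WT libraries at 39.6 to 99.7 CPM. The CA1 markers Wfs1 and Fibcd1 were abundant in both genotypes, Wfs1 at 909.8 CPM in Fmr1-KO, against 976.3 CPM in WT. Of the dentate granule markers 2 were tested. Prox1 was at 5.88 CPM and Lct at 162.4 CPM in Fmr1-KO, against 8.08 CPM and 157.3 CPM in WT. The other listed dentate markers, Dsp, C1ql2, Tdo2 and Stxbp6, had 16, 18, 23 and 130 estimated counts over all libraries, too few to be tested.

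The members are spread over the genome, and their positions are those of GENCODE M21 on GRCm38. Kcna4 lies on chromosome 2 (107290639 to 107298502, plus strand), Kcnab1 on chromosome 3 (65109384 to 65378223, plus strand) and Kcnab2 on chromosome 4 (152390742 to 152477871, minus strand). Kcnc1 lies on chromosome 7 (46396497 to 46438704, plus strand) and Kcnc2 on chromosome 10 (112271121 to 112467024, plus strand). Kcna2 (chromosome 3, 107101146 to 107115005) and Kcnc4 (chromosome 3, 107438303 to 107459552) lie 323.3 kb apart. Kcna1 (chromosome 6, 126640397 to 126646384) lies 61.9 kb from Kcna6, another Kv1 gene, and 478.8 kb from Ccnd2, the cyclin D2 gene, which was 1 of the 2 genes past the threshold between the genotypes. Of the neighbours, Ccnd2 averaged 5.73 ± 2.57 CPM in Fmr1-KO mice and 41.2 ± 10.3 CPM in WT mice (SD, n = 8 each), and Kcna6 averaged 13.8 ± 9.33 CPM in Fmr1-KO mice and 12.9 ± 7.25 CPM in WT mice. Whether position near Ccnd2 has a part in the Kcna1 value was not tested.

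None of the pore-forming Kv1 genes passed the test between the genotypes. Kcna1, which encodes Kv1.1, had 45.6, 62.0 and 87.8 CPM as the lowest, median and highest of the 8 Fmr1-KO libraries, against 31.2, 53.1 and 72.9 CPM in WT. The ranges overlapped widely, although 7 of 8 Fmr1-KO libraries exceeded the WT median. The log2 fold change was 0.28 ± 0.17 (SE; edgeR, adjusted p = 0.691), with a 95% interval of −0.07 to 0.63. Kcna2, which encodes Kv1.2, the usual partner of Kv1.1 in axons, had 125, 168 and 218 CPM in Fmr1-KO, against 94.5, 161 and 210 CPM in WT. Only 4 of 8 Fmr1-KO libraries lay above the WT median, and the log2 fold change was 0.13 ± 0.15 (SE; edgeR, adjusted p = 0.871). Kcna4, which encodes Kv1.4, the inactivating A-type subunit of axons and terminals, had 24.1, 41.7 and 54.3 CPM in Fmr1-KO, against 22.3, 35.3 and 55.2 CPM in WT. Its highest value of all was in WT replicate 3, and its log2 fold change was 0.19 ± 0.20 (SE; edgeR, adjusted p = 0.845). That fold change was 0.29 (edgeR, adjusted p = 0.743) without WT replicate 3 and 0.31 (adjusted p = 0.739) without WT replicates 3 and 6.

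The beta subunits had the smallest errors of the members, and neither passed the test. Kcnab1, which encodes the beta subunit that inactivates Kv1 channels, had 421, 455 and 492 CPM in Fmr1-KO, against 367, 401 and 491 CPM in WT. All 8 Fmr1-KO libraries lay above the WT median, yet the ranges overlapped. The log2 fold change was 0.14 ± 0.08 (SE; edgeR, adjusted p = 0.666), and it was 0.10 (edgeR, adjusted p = 0.786) without WT replicates 3 and 6. Kcnab2, which encodes the beta subunit that carries Kv1 channels to the axon, had 1254, 1411 and 1492 CPM in Fmr1-KO, against 1309, 1350 and 1727 CPM in WT. The highest WT value came from replicate 3. Its log2 fold change was −0.01 ± 0.07 (SE; edgeR, adjusted p = 0.980), and the 95% interval ran from −0.16 to 0.14.

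Among the Kv3 genes, Kcnc1, which encodes Kv3.1, had 101, 121 and 169 CPM in Fmr1-KO, against 82.3, 131 and 229 CPM in WT. WT replicate 6 alone held the value of 229. The other WT libraries ran from 82.3 to 145 CPM, a range that overlapped that of Fmr1-KO but reached lower and ended lower. The log2 fold change was −0.03 ± 0.16 (SE; edgeR, adjusted p = 0.971) with all libraries and 0.09 without WT replicate 6. Kcnc2, which encodes Kv3.2, had 61.8, 103 and 139 CPM in Fmr1-KO, against 76.2, 103 and 113 CPM in WT. The Fmr1-KO libraries spanned the whole WT range, and the log2 fold change was 0.06 ± 0.13 (SE; edgeR, adjusted p = 0.942).

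Kcnc4, which encodes Kv3.4, an inactivating subunit of axon terminals, was near the limit of detection. Its estimated counts in the 8 Fmr1-KO libraries were 1, 6, 13, 0, 1, 0, 3 and 18, and in the 8 WT libraries 14, 5, 13, 15, 8, 9, 7 and 6. Every WT library had at least 5 counts, whereas 5 of 8 Fmr1-KO libraries had 3 or fewer, although the highest count of all was also in Fmr1-KO. The totals were 42 counts in Fmr1-KO and 77 counts in WT, of which WT replicates 3 and 6 gave 22. A count of 0 allows up to 3 counts, which is 1.28 and 1.12 CPM in the 2 Fmr1-KO libraries at 0, and this limit covers counting error only. The low-count filter removed the gene, so it has no test in the comparison over 11515 genes. With no filter its log2 fold change was −1.50 ± 0.75 (SE; edgeR, adjusted p = 0.387 over 26471 genes).

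**Figure D1:**
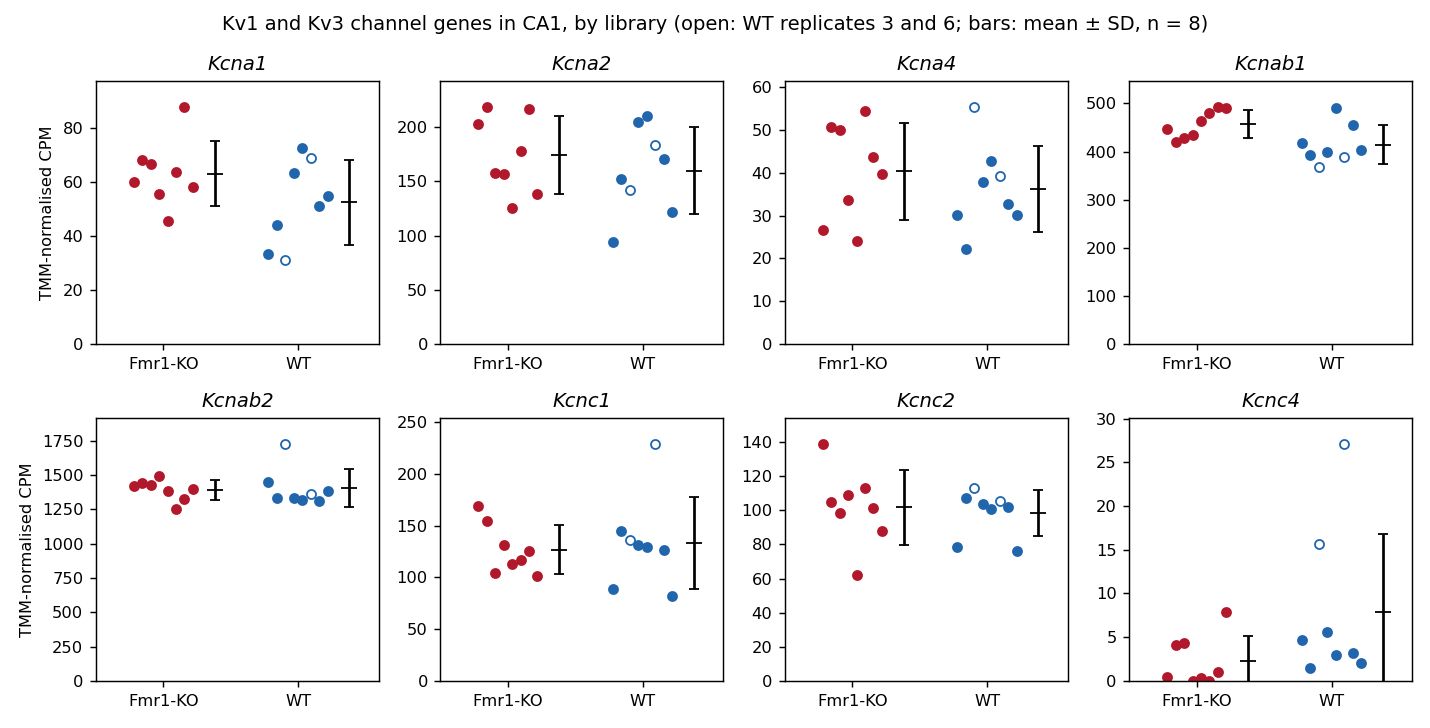
TMM-normalised CPM (vertical axis, from 0) of the 8 channel genes in each library, Fmr1-KO at left and WT at right of each panel, with mean ± SD beside the points (n = 8 each; for Kcnc4 the lower end of the bar is cut at 0). The ranges of the genotypes overlap in all 8 panels, and the open points, WT replicates 3 and 6, hold the highest WT values of Kcna4, Kcnab2, Kcnc1, Kcnc2 and Kcnc4.

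Of the 7 members tested, 0 passed an adjusted p of 0.05 in edgeR, where 0.0174% of 11515 genes passed (2 genes, Fmr1 and Ccnd2, both lower in Fmr1-KO). None of the 7 had an unadjusted p under 0.05 either, against 7.89% of all genes tested. Limma-voom, which called 7 of 11515 genes, called 0 of the 7 members, with Kcna1, Kcna4 and Kcnab1 under 0.05 before adjustment. The 7.89% is the share in edgeR. That in limma-voom is not given here, so the unadjusted count has no background to be read against. DESeq2 gave an adjusted p to Kcnab1 and Kcnab2 only, neither past the threshold, and its independent filter left the other 5 without one. Before adjustment 0 of the 7 were under 0.05 in DESeq2. For 5 of the 7 the log2 fold change was above 0, with a median of 0.13, against 48.1% above 0, 51.9% below 0 and a median of −0.01 over all genes. With scaling by library totals alone, or without WT replicates 3 and 6, all 7 were above 0, with medians of 0.18 and 0.11. Over all genes the medians in these fits were 0.024 and −0.002. The share of all genes above 0 in them is not given here, so the count of 7 has no such background. With log2(TPM + 1), relative to the median gene, 6 of 7 were above 0. No member had groups that did not overlap, where 0.0347% of genes had every Fmr1-KO library below every WT library and 0.00868% every one above. The 95% intervals of the 7 tested members bound how far the levels could differ: the widest, of Kcna4, ran from −0.22 to 0.60, and the narrowest, of Kcnab2, is given above.

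Markers of other cell types are given beside that count. The summed CPM of the 9 oligodendrocyte markers was 229 to 453 in Fmr1-KO and 253 to 681 in WT, and 0 of the 7 tested were higher in Fmr1-KO (median log2 fold change −0.37). By fold change, astrocyte (0 of 7 higher, median −0.38), microglial (0 of 9 higher, median −0.31) and endothelial and pericyte markers (1 of 9 higher, median −0.50) also lay lower. Their summed CPM were 1566 to 2506, 166 to 293 and 68.7 to 167 in Fmr1-KO, against 1757 to 5333, 213 to 525 and 102 to 425 in WT. With WT replicates 3 and 6 left out, these WT sums were 1798 to 2437, 213 to 296 and 102 to 194. The median astrocyte sum over all libraries was higher in Fmr1-KO, at 2205 CPM, against 1939 CPM in WT. For microglia the median sums were 207 and 231 CPM, and for endothelial cells and pericytes 126 and 173 CPM. GABAergic markers had 3 of 11 higher and a median of −0.28, with summed CPM of 404 to 808 in Fmr1-KO and 552 to 820 in WT. The CA1 pyramidal markers had 2 of 9 higher and a median of −0.08. None of these markers passed the threshold, and the defining markers Mbp, Gfap, Csf1r, Cldn5 and Gad1 were detected in both genotypes. Without WT replicates 3 and 6 the medians were −0.40 for oligodendrocytes, −0.11 for astrocytes, −0.16 for microglia, −0.30 for endothelial cells and −0.185 for GABAergic cells. Their part in the member values was not tested.

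The wider Kv family, every other symbol of the Kv1, Kv2, Kv3, silent Kv and Kv beta series in the files, held 19 genes, of which 12 were tested. In Fmr1-KO 9 were above 0 and 3 below, with a median log2 fold change of 0.15, and 0 passed the threshold in edgeR. An unadjusted p under 0.05 was reached by 3, each higher in Fmr1-KO. Over all genes 3.61% were higher and 4.28% lower at that level. Kcns1, a silent subunit that modifies Kv2 channels, had 7.25, 13.4 and 16.4 CPM in Fmr1-KO, against 0, 4.37 and 8.77 CPM in WT. All 8 Fmr1-KO libraries lay above the WT median, and the lowest of them was the only one within the WT range. The log2 fold change of Kcns1 was 1.31 ± 0.40 (SE; edgeR, adjusted p = 0.515), and 1.10 (adjusted p = 0.600) without WT replicates 3 and 6. Kcng2 and Kcns2, both silent subunits, had log2 fold changes of 0.80 (adjusted p = 0.624) and 0.36 (adjusted p = 0.628) in edgeR. Without WT replicates 3 and 6 they were 0.76 and 0.24 (edgeR, adjusted p = 0.644 and 0.711). Kcns2 then no longer had an unadjusted p under 0.05 and Kcnb2 did, so the count stayed at 3. With length-scaled TPM counts the log2 fold change of Kcng2 was 1.69 (edgeR, adjusted p = 0.556). In TPM Kcng2 was at 57.9 in Fmr1-KO replicate 8 and at 6.64 to 16.0 in the other Fmr1-KO libraries. Its CPM in replicate 8 was 10.1. Kcnb2, a pore-forming Kv2 gene, averaged 61.3 ± 13.9 CPM in Fmr1-KO mice and 47.0 ± 13.4 CPM in WT mice (SD, n = 8 each; log2 fold change 0.38, edgeR, adjusted p = 0.645). The 7 genes not tested, Kcna3, Kcna5, Kcna7, Kcna10, Kcng1, Kcng3 and Kcnv2, had 0 to 97 estimated counts each over all 16 libraries.

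The proteins that anchor Kv1 channels in the axon and synapse gave a mixed picture. Of 12 listed genes 11 were found and tested, 7 above 0 and 4 below, and 0 passed the threshold. Cntnap2, which encodes the Caspr2 protein that clusters Kv1 channels beside nodes, had 287, 390 and 456 CPM in Fmr1-KO, against 148, 314 and 370 CPM in WT. Most Fmr1-KO libraries, 6 of 8, exceeded the WT median, with a log2 fold change of 0.40 ± 0.15 (SE; edgeR, adjusted p = 0.581). Dlg1, which encodes the scaffold SAP97, had 27.8, 33.0 and 38.5 CPM in Fmr1-KO, against 31.8, 40.5 and 51.2 CPM in WT. No Fmr1-KO library reached the WT median, and the log2 fold change was −0.33 ± 0.14 (SE; edgeR, adjusted p = 0.617), or −0.93 (adjusted p = 0.561) with length-scaled TPM counts. On that scale Cntnap2 was at 0.65 (edgeR, adjusted p = 0.556) and Kcnb2 at 0.60 (adjusted p = 0.620). Dlg4, the gene of the scaffold PSD-95, and Adam22, the gene of an Lgi1 receptor, had log2 fold changes of −0.17 and 0.19 with adjusted p of 0.630 and 0.649 in edgeR. Without WT replicate 3 that of Dlg4 was −0.09, and with length-scaled TPM counts that of Adam22 was 0.05. Of the 5 Kv2 partners, 1 was above 0 and 4 below, with a median of −0.05. Amigo1, the auxiliary subunit of Kv2 channels, was the one above, at 0.17.

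**Figure D2:**
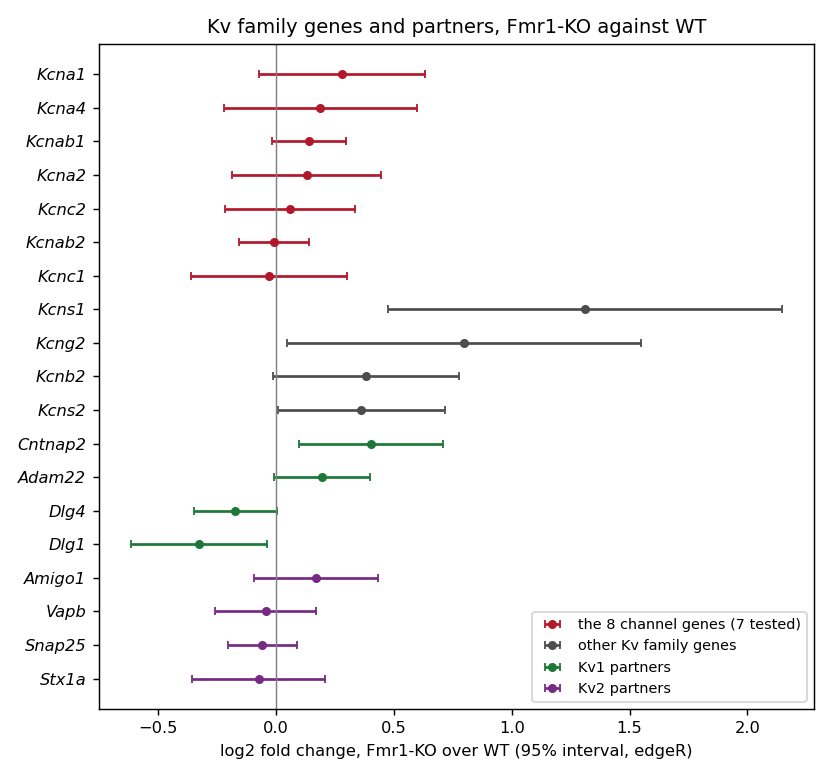
Log2 fold change (horizontal axis, Fmr1-KO over WT) with its 95% interval from edgeR for the 7 tested channel genes and, from each of the wider Kv family, the Kv1 partners and the Kv2 partners, the 4 tested genes with the smallest unadjusted p, a choice made on these values. The intervals of all 7 channel genes cross 0, while those of Kcns1, Kcng2, Kcns2, Cntnap2 and Dlg1 do not before adjustment over all genes.

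The 2 coding transcripts of Kcnc1 had fold changes of opposite sign, neither past the threshold, with that of the gene at −0.03 in summed counts. That sum does not allow for the length of the transcripts, and with length-scaled TPM counts the gene had a log2 fold change of −0.32 (edgeR, adjusted p = 0.750). Its products end differently: Kcnc1-001, with 511 codons, reads on through the splice donor (the form known as Kv3.1a), and Kcnc1-002, with 585 codons, is spliced to downstream exons (Kv3.1b, known for its longer cytosolic tail). The lines below show the point where they part, in the sense of the gene, with the bases particular to each transcript in capitals.
Kcnc1-001: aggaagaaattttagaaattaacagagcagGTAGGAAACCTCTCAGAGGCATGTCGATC
Kcnc1-002: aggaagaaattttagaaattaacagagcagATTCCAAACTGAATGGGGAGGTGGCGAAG
The shared 30 bases lie at chr7:46428250-46428279 of GRCm38 on the plus strand. The capitals of Kcnc1-001 follow at chr7:46428280-46428308, and those of Kcnc1-002 at chr7:46435158-46435186. The deposited lengths are 7759 bases for Kcnc1-001 and 2827 bases for Kcnc1-002, and reads were assigned to them over those whole lengths by the authors.

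Kcnc1-001 had 72.8, 92.5 and 131 CPM as the lowest, median and highest of the Fmr1-KO libraries, against 58.6, 68.8 and 94.5 CPM in WT. Kcnc1-002 had 19.1, 35.8 and 60.1 CPM in Fmr1-KO, against 28.5, 54.1 and 179 CPM in WT. By median the first transcript was higher and the second lower in Fmr1-KO, with overlap in both. Their log2 fold changes were 0.37 ± 0.15 (SE) for Kcnc1-001 and −0.76 ± 0.35 (SE) for Kcnc1-002, each with an adjusted p of 0.9999 over 16772 transcripts in edgeR. Both had an unadjusted p under 0.05, as did 3.91% of all transcripts tested. Without WT replicates 3 and 6 they were 0.29 and −0.31, and neither then had an unadjusted p under 0.05.

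The share of Kcnc1-001 in the estimated counts of Kcnc1 gives the balance within each library. It was 56.3%, 75.2% and 80.4% at the lowest, median and highest in Fmr1-KO, against 24.4%, 61.8% and 67.4% in WT. In 6 of 8 Fmr1-KO libraries the share was above every WT value, and the 2 lowest WT values were those of replicates 3 and 6. The means were 71.8% ± 9.27 in Fmr1-KO and 56.1% ± 14.4 in WT (SD, n = 8 each), a difference of 15.7 percentage points (two-sided exact permutation test, p = 0.0120). Of 3425 genes with at least 2 tested transcripts, 6.42% had a p under 0.05 in that exact test and 0 passed after adjustment, and Kcnc1 had an adjusted p of 0.760. With WT replicates 3 and 6 left out, WT averaged 63.0% ± 3.76 (SD, n = 6), the difference was 8.78 points and the exact p was 0.0513 (adjusted p = 0.852), with 5.72% of genes under 0.05. The difference was thus larger with these 2 shallow libraries than without them, and the part of their depth and composition was not tested.

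**Figure D3:**
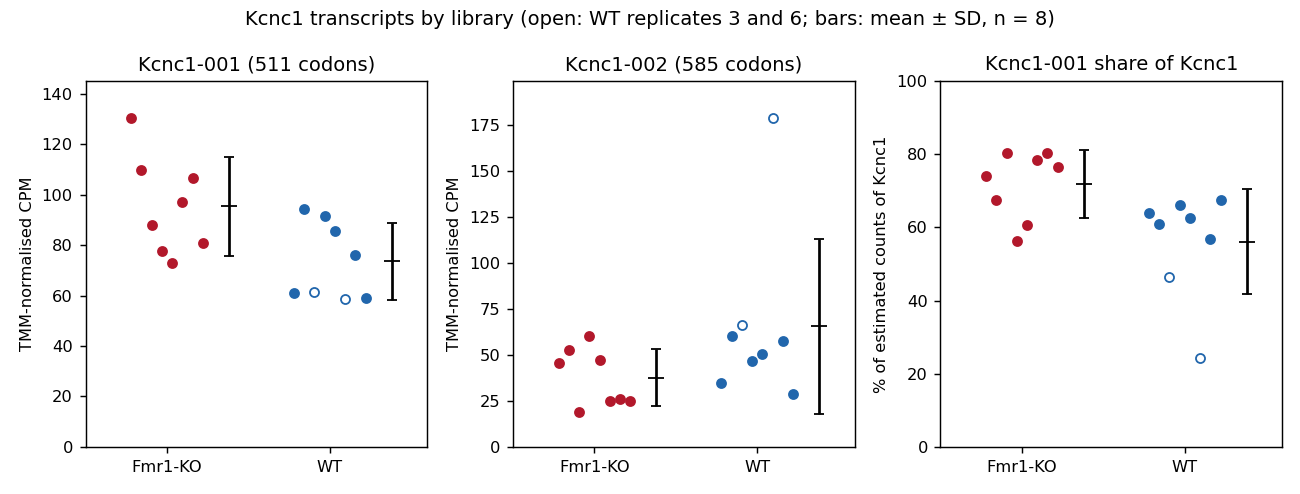
CPM of Kcnc1-001 and Kcnc1-002 and the share of Kcnc1-001 in the estimated counts of Kcnc1 (vertical axes, from 0) in each library, Fmr1-KO left of WT, with mean ± SD (n = 8 each). The share averages 71.8% in Fmr1-KO and 56.1% in WT, and the open points, WT replicates 3 and 6, hold the 2 lowest shares.

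Transcripts of the other members were tested likewise. Over all 8 genes the files hold 33 transcripts, of which 13 were tested and 0 passed the threshold, where 0.00596% of all transcripts tested passed. Beside those of Kcnc1, only Kcnab1-001 had an unadjusted p under 0.05, with 464 ± 28.1 CPM in Fmr1-KO mice and 412 ± 48.4 CPM in WT mice (SD, n = 8 each; log2 fold change 0.17, edgeR, adjusted p = 0.9999), and its log2 fold change was 0.09 without WT replicates 3 and 6. That transcript held 96.3% of Kcnab1 counts in Fmr1-KO and 94.9% in WT. Kcna2-001, Kcna4-001 and Kcnc2-201 carried nearly all counts of their genes, with log2 fold changes of 0.12, 0.18 and 0.06. Kcna1-001 and Kcna1-002, which encode the same protein of 495 codons, had log2 fold changes of 0.27 and 0.31, with SE of 0.21 and 0.92. Kcna1-002 had counts in only 12 of 16 libraries.

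Kcnab2 was divided between Kcnab2-001 (367 codons) and Kcnab2-004 (353 codons) in proportions that varied widely within each genotype. The share of Kcnab2-001 was 53.1%, 65.4% and 84.6% at the lowest, median and highest in Fmr1-KO, against 32.0%, 76.9% and 86.9% in WT. The means differed by −4.71 points (exact permutation test, p = 0.572), by −10.4 points without WT replicate 3 (exact p = 0.101) and by −8.91 points without WT replicates 3 and 6 (exact p = 0.172). Without those 2 libraries the SD was 13.6 points in Fmr1-KO and 7.81 points in WT. In 4 Fmr1-KO libraries Kcnab2-004 reached 610 to 631 CPM, and in WT replicate 3 it reached 1122 CPM, above its own Kcnab2-001 at 544 CPM. The shorter Kcnab2 transcripts Kcnab2-005 and Kcnab2-008, and Kcnab1-006, had log2 fold changes of −0.19, 0.41 and −0.20, with SE of 0.61, 0.84 and 0.81.

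Levels of the genes were compared with each other in TPM, which is per length, summed over protein-coding transcripts. Kcnab2 had a median of 697 TPM in Fmr1-KO and 638 TPM in WT, and Kcnab1 one of 258 TPM in Fmr1-KO and 228 TPM in WT. Kcnc1 followed with medians of 45.4 TPM in Fmr1-KO and 34.8 TPM in WT. These 3 genes kept their order, each above the next, in 16 of 16 libraries. The next 3 genes could not be ordered, since Kcnc2 exceeded Kcna2 in 8 of 16 libraries and Kcna2 exceeded Kcna1 in 9 of 16. Their medians were 29.9 TPM for Kcnc2, 29.1 TPM for Kcna2 and 27.4 TPM for Kcna1 in Fmr1-KO, against 24.0, 20.8 and 20.7 TPM in WT. Kcna4, with medians of 15.7 TPM in Fmr1-KO and 10.2 TPM in WT, lay below Kcna1 in 15 of 16 libraries, or in 12 of 16 when noncoding transcripts were included. Kcnc4, at 0.38 TPM in Fmr1-KO and 1.47 TPM in WT, lay below all others in 16 of 16. In WT replicate 6 all members but Kcnc4 had their lowest TPM (75.8 TPM for Kcnab2), so the medians in TPM are given as levels and not as a test.

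Proportions among the 8 genes do not depend on the other genes of a library. Kcnab2 made up 59.9% to 66.9% of the summed TPM of the 8 genes in Fmr1-KO and 60.1% to 72.7% in WT, and Kcnab1 20.3% to 24.9% in Fmr1-KO and 15.2% to 24.2% in WT. Beta subunits together exceeded the 3 Kv1 pore-forming genes by a median factor of 12.8 in Fmr1-KO (range 9.66 to 18.5) and 14.8 in WT (range 10.4 to 22.1). Kcna2 over Kcna1 had a median ratio of 0.99 in Fmr1-KO and 1.06 in WT, and Kcnc1 over Kcnc2 one of 1.40 in Fmr1-KO and 1.76 in WT. For each of these ratios the ranges of the genotypes overlapped.

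**Figure D4:**
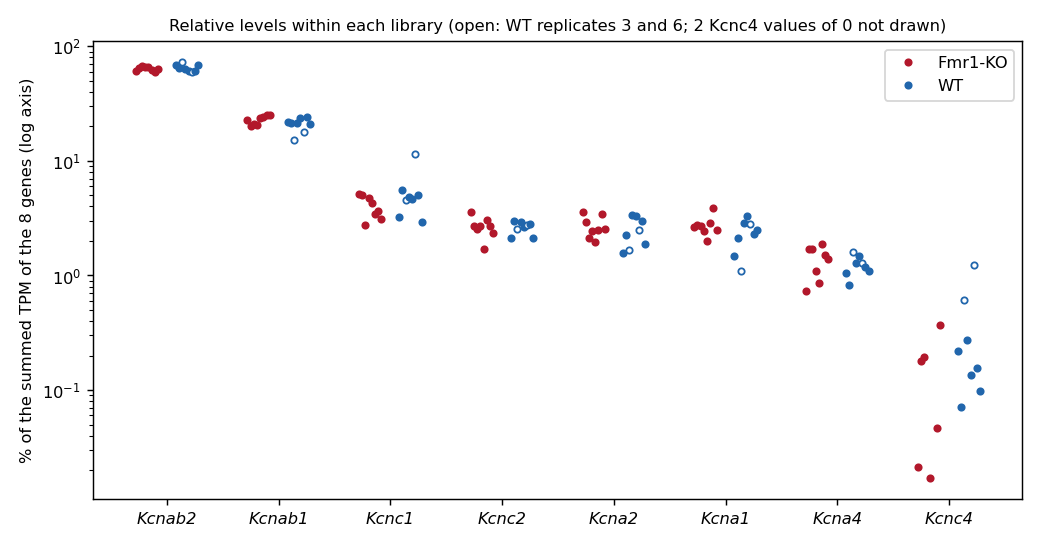
Share of each gene in the summed TPM of the 8 channel genes (vertical axis, %, log scale) in each library, Fmr1-KO left of WT, genes ordered by median level. Kcnab2 and Kcnab1 lie above all others in every library, Kcnc2, Kcna2 and Kcna1 overlap, and 2 Fmr1-KO libraries with 0 for Kcnc4 are not drawn.

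Some members varied together from animal to animal. Deviations of log2 CPM from the genotype mean were correlated over the 14 libraries other than WT replicates 3 and 6, for 21 pairs of members. Kcna1 and Kcna2, whose products assemble in the same channels, had a Pearson r of 0.824 and a Spearman rho of 0.776 (permutation p = 0.00024 and 0.00178, adjusted over the pairs 0.00504 and 0.0187). The r was 0.780 within Fmr1-KO and 0.853 within WT, and 0.720 without the 2 libraries farthest from the median of Kcna1. Of 7091 genes with a mean of at least 20 CPM, 0.324% had an r with Kcna1 as high. Kcnc1 and Kcnc2, which also form channels together, had r of 0.725 and rho of 0.802 (permutation, adjusted p = 0.0140 and 0.0187; r = 0.653 without the 2 farthest libraries). Kcna2 with Kcnc1 was as close, with r of 0.760 and rho of 0.736 (permutation, adjusted p = 0.0140 and 0.0251). Without the 2 libraries farthest from the median of Kcna2 its r was 0.729. Of the 7091 genes, 3.41% had an r with Kcna2 as high as 0.760. Counted from Kcnc1, 0.536% of genes had an r of at least 0.725. These shares depend on which gene of a pair they are counted from, and do not rank the pairs. Kcna2 with Kcnc2 had r of 0.707 and rho of 0.582 (permutation, adjusted p = 0.0223 and 0.127). An r with Kcna2 as high as 0.707 was held by 5.22% of the 7091 genes. Kcna1 with Kcna4 had r of 0.640 and rho of 0.714 (permutation, adjusted p = 0.0571 and 0.0274). An r with Kcna1 as high as 0.640 was held by 6.4% of them. Pairs of Kcna2 with a Kv3 gene were thus among the closest, beside some pairs within a family. The other Kv1 genes were not close to the Kv3 genes. Kcna1 had r of 0.286 with Kcnc1 and 0.425 with Kcnc2 (permutation, adjusted p = 0.519 and 0.273). Kcna4 had r of −0.109 and 0.237 with them (permutation, adjusted p = 0.783 and 0.591). Kcnab2 gave no positive relation with any member, and its r with Kcnab1 was −0.538 (rho = −0.516, permutation, adjusted p = 0.163 and 0.188).

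Kcnc1 also varied with the GABA-synthesising enzymes. Its r with Gad1 was 0.811 and its rho 0.842 (permutation p = 0.00035 and 0.00031, adjusted over 35 relations of members with interneuron markers 0.0123 and 0.0109). The r was 0.850 within Fmr1-KO, 0.895 within WT and 0.829 without the 2 libraries farthest from the median, and 0.0705% of genes had an r with Kcnc1 as high. With Gad2 it was 0.772 (rho = 0.701, permutation, adjusted p = 0.0347 and 0.118), and 0.706 without the 2 farthest. With Slc32a1, another GABAergic marker, the r was 0.580 and the rho 0.538 (permutation, adjusted p = 0.209 and 0.288). An r with Kcnc1 as high as that was held by 3.61% of genes. Neither Pvalb, the parvalbumin marker of fast-spiking interneurons, with r of 0.141 (rho = 0.222), nor Sst, with r of 0.0259 (rho = −0.103), followed Kcnc1, and their adjusted permutation p were 0.990 and 0.995. Pvalb was sparse, at 8.89 CPM in Fmr1-KO, against 10.95 CPM in WT. Depth and dissection are shared by the genes of a library, and their part in these relations was not tested.

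**Figure D5:**
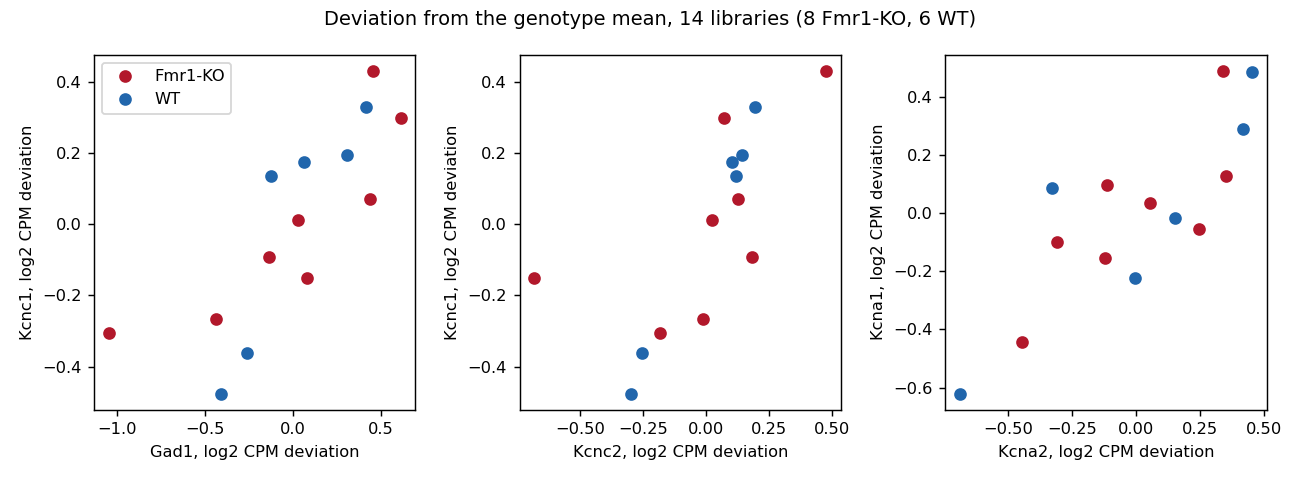
Deviation of log2 CPM from the genotype mean in 14 libraries (8 Fmr1-KO, 6 WT), for Kcnc1 against Gad1, Kcnc1 against Kcnc2 and Kcna1 against Kcna2. Points of both genotypes rise along the diagonal in each panel, with r of 0.811, 0.725 and 0.824.

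The genes whose deviations most resembled those of a member over the same 14 libraries, of 7091 candidates, are named as a description and with no test, since they were picked as the highest. For Kcna1 they were St8sia1 (r = 0.886), C77370 (0.880) and Phf20 (0.879). Kcna2 came closest to Pak3 (0.932), Ankrd17 (0.919) and Eps15 (0.915), and Kcna4 to Insr (0.922), Hcfc1 (0.908) and Pde10a (0.899). Kcnab1 was followed by Pcsk2 (0.856), Rbfox1 (0.853) and Nfia (0.827), and Kcnab2 by Hcn2 (0.865), Rundc3a (0.827) and Rnf121 (0.825). For Kcnc1 the highest were Hltf (0.838), Slit3 (0.832) and D130017N08Rik (0.817), and for Kcnc2 Camta1 (0.962), Arid5b (0.931) and Unc80 (0.889). No other member was among the 3 closest genes of any member.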

How the data were processed

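RNA of the CA1 subfield was isolated with a Maxwell kit and sequenced on an Illumina HiSeq, per the labels' protocols. FastQC, cutadapt, kallisto and DESeq2 are named in the submitters' processing notes. Versions, genome build and index: not given in the sources used here. The authors deposited, per library, estimated counts of 111706 transcripts, which are reads shared out between transcripts by a model, and TPM, which are relative abundances per effective length and hold no depth. The deposited lengths are in bases. Estimated counts were summed by gene symbol and rounded. Transcripts of the 8 genes were matched to GENCODE M21 (GRCm38): all 33 were found, 30 with the deposited length (not Kcnc1-001, Kcnc1-002 and Kcnc2-201).

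Genes and transcripts were tested by the quasi-likelihood test of edgeR 4.0.16 in R 4.3.3 (TMM, filterByExpr with a minimum count of 10, genotype only), with Benjamini-Hochberg adjustment over all 11515 genes or 16772 transcripts and a threshold of 0.05. TMM-normalised CPM are used as levels. The same test was checked on simulated counts. Fold changes are Fmr1-KO over WT. Transcript shares were compared by exact permutation in SciPy 1.17.1 over 12870 assignments (smallest p 0.000155), and adjusted over 3425 genes in place of the members alone, a change made after seeing the data. Correlations used log2 CPM with a prior count of 2 and 100000 permutations. Alternatives were DESeq2 1.42.0, limma 3.58.1 (voom, and log2(TPM) with pseudocounts), other scalings and filters, letter or number of the animal label as a covariate or random effect, and omission of libraries. For shares, the omission of libraries was added after seeing the data. Replicate numbers were given in accession order and pair no animals. The members, lists, tests and alternatives were chosen with earlier results of these data known. Named genes are Fmr1, the members and their tested transcripts, up to 4 genes with the smallest p from each family or partner list, the 3 genes most correlated with each member, and markers. Ccnd2, Kcna6 and Kcnc4's unfiltered test were added for their position or low counts after values were seen.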

Additional observations from a re-analysis of the deposited data

Results flagged for a closer look

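Outlying libraries were sought in 24 sets of 8 values, by the gap of the extreme library to its nearest neighbour as a share of the range, and chance gives about 1 in 20. In WT, Kcnab2 had 1730 CPM in replicate 3, with the next library at 1450 CPM. Kcnc1 had 229 CPM in WT replicate 6, with the next at 145 CPM. The share of Kcnab2-001 was 32.0% in WT replicate 3, with the next at 67.1%. All of these values come from the 2 shallow WT libraries, and the cause was not tested.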

How the results depend on the processing

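Of the 7 tested members, 0 passed the threshold under any alternative, but the DESeq2 Wald test judged only 2 of them (Kcnab1 and Kcnab2), since the other 5 had no adjusted p there. Over 28 refits Kcna1, Kcna2, Kcna4 and Kcnab1 kept a log2 fold change above 0, with ranges of 0.20 to 0.38, 0.04 to 0.20, 0.06 to 0.42 and 0.06 to 0.19, and the smallest adjusted p of a member was 0.317 in DESeq2 (Kcnab1) and 0.347 in the other refits (Kcna4, limma-voom). Of all genes, 11 passed in DESeq2, 7 in limma-voom, 5 with no filter, 1 with length-scaled TPM counts and 0 in each fit of log2(TPM), against 2 in edgeR. Omission of single libraries gave 2 to 3. Kcnab2, at −0.01, turned to 0.0438 with library totals, 0.0127 with no filter, 0.0083 with a filter of 1 CPM, 0.0246 in limma-voom, 0.0888 and 0.0140 with log2(TPM + 1) and log2(TPM + 0.1), 0.0337 with length-scaled counts, 0.0045 with a random effect of animal number and 0.0414 without WT replicates 3 and 6, and ran from −0.0214 to 0.0415 on omission of single libraries. Kcnc1, at −0.03, turned to 0.0366 with library totals, 0.0397 in limma-voom, 0.0569 with the random effect and 0.110 without WT replicates 3 and 6, and ran from −0.109 to 0.0869 on omission of single libraries. It was lower with length-scaled counts (−0.323), log2(TPM + 1) (−0.209) and log2(TPM + 0.1) (−0.275). Kcnc2 ran from −0.0128 to 0.140 on such omission. Fold changes in log2(TPM) are relative to the median gene, which shifted by 0.55 and 0.62, while their p-values test the unshifted values. Over the 28 refits 8 family and partner genes kept their direction, with ranges of 1.07 to 1.94 for Kcns1, 0.66 to 1.69 for Kcng2, 0.24 to 0.44 for Kcns2, 0.25 to 0.62 for Kcnb2, 0.32 to 0.66 for Cntnap2, −0.93 to −0.27 for Dlg1, −0.19 to −0.09 for Dlg4 and 0.04 to 0.24 for Adam22. The Kcnc1-001 share difference ran from 11.1 to 17.9 points on omission of single libraries (exact p up to 0.0239), and was 8.78 points without WT replicates 3 and 6. That of Kcna1-001, −2.10 points, was 2.41 without those libraries and −5.11 to 1.33 on single omission. Where no other value shows it, the cause of a change was not tested. No paired analysis was possible because the replicate numbers are accession order only and pair no animals. Some libraries of a genotype share the number of the animal label and differ in its letter, as 118 B and 118 D in Fmr1-KO. Only the refit with a random effect of animal number used this sharing. The permutation tests of shares and correlations treat all libraries as independent. Depth limits Kcnc4 most, with 119 counts over 16 libraries.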
